A study of Mus musculus with 100 samples.

Results

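Cultures of 2 extraembryonic cell types, both derived from mouse embryonic stem cells of the same flox genotype, were compared by RNA sequencing: 2 libraries labelled trophectoderm (TE) at day 6 and 2 labelled extraembryonic endoderm (XEN) at day 5. These 4 libraries were chosen by their titles out of 100 samples of the series, of which 37 have an expression table here. The flox cells carry Mll3-/- and Mll4flox/flox, so Mll3 (Kmt2c) is labelled null in every culture described here, and both genes encode histone H3 lysine 4 methyltransferases. A further 4 libraries of the same 2 protocols, from KI cells (Mll3-/-;Mll4KI/KI, clones 27 and 48, KI not spelled out in the labels), and 1 library of undifferentiated flox stem cells (ESC, day 0, grown in 2i and LIF) serve as comparison. For trophectoderm, cells carrying a doxycycline-inducible lentiviral vector for T7-tagged CDX2 were grown in trophoblast stem cell medium, conditioned by embryonic fibroblasts, with FGF-4 at 25 ng/mL, heparin at 1 µg/mL and doxycycline at 1 µg/mL. For extraembryonic endoderm, cells were grown with retinoic acid at 0.1 µM and activin A at 10 ng/mL. Lineage, day, medium, transgene and added factors therefore differ together and cannot be told apart. The libraries held 19.58 to 26.05 M gene-level reads, and levels are given as CPM, read counts scaled to library totals with TMM factors. On this scale 3 reads, the most that a count of 0 allows for counting error alone, equal 0.111 to 0.158 CPM. However, low counts in these libraries were mostly even numbers, so reads were not counted independently and such limits are too narrow. Stem cell levels come from a separate TMM scaling with the 4 flox libraries, so lineage levels close to them cannot be ranked. Percentages of the stem cell level use that separate scaling throughout. No source here states that the 2 flox libraries of a group came from separate cultures. P-values therefore measure only a spread between libraries, estimated over all 8 lineage libraries, and differences between the KI clones enter it too.

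Trophectoderm is the outer epithelium of the blastocyst and forms the trophoblast of the placenta. It is specified by transcription factors that include CDX2, EOMES, GATA3, ELF5 and TFAP2C, and these genes are set against the pluripotency factors of the inner cell mass. Primitive endoderm, the source of extraembryonic endoderm, is specified by GATA6, GATA4 and SOX17. It gives rise to visceral endoderm, a secretory and absorptive epithelium that makes alpha-fetoprotein and apolipoproteins, and to parietal endoderm, which lays down a thick basement membrane.

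The labels were set against defining markers, in a comparison in which 64.7% of all 15532 tested genes were called with edgeR at an adjusted p under 0.05 (32.2% higher in the cultures labelled TE, 32.5% in those labelled XEN). All 17 extraembryonic endoderm markers were higher in the cultures with that label, with summed levels of 7444 and 7310 CPM against 894 and 874 CPM. Of 12 trophectoderm markers, 6 were higher in the cultures labelled TE, 3 were higher in the endoderm cultures and 3 did not pass the test, and the summed levels overlapped (3436 and 3346 against 3399 and 3410 CPM). In the stem cells these 12 genes summed to 184.5 CPM. All 8 pluripotency markers were higher in the cultures labelled TE, at 1052 and 1022 against 145.7 and 131.7 CPM in sum, below the 6265 CPM of the stem cells. Markers of the trophectoderm label thus pointed both ways, and these libraries are called CDX2 cultures below, after the transgene in their titles.

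Promoters of 4 genes with some of the widest differences are shown, 2 higher in endoderm cultures and 2 higher in CDX2 cultures. Each is the stretch of 250 bases before a RefSeq transcript start (build GRCm38.p6), 5′ to 3′ on the gene's strand, and capitals mark matches to any of 7 short motifs. The motifs, searched on both strands, were AGATAA for factors of the Gata family, TGTTTAC for FOXA, GTTAAT for HNF1, TTTGCAT for POU, AAGGTCA for ESRRB, TTTATG for CDX and GCCNNNGGC for AP-2 factors, and their matches can overlap. These 4 genes were chosen after their values were seen. Afp lies at chr5:90490464-90490713 (+ strand), Hnf4a at chr2:163506607-163506856 (+ strand), Nanog at chr6:122707239-122707488 (+ strand) and Elf5 at chr2:103411848-103412097 (+ strand), and for the last 3 the first of 2 windows in the table is printed.
Afp: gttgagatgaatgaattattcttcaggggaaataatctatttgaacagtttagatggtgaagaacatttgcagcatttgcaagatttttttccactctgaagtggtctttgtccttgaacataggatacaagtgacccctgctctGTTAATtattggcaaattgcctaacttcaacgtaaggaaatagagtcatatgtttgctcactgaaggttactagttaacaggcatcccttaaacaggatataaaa
Hnf4a: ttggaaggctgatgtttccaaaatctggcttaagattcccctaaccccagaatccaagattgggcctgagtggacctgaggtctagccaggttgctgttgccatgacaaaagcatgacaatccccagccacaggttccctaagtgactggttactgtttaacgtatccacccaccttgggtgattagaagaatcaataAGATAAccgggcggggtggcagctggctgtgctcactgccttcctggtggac
Nanog: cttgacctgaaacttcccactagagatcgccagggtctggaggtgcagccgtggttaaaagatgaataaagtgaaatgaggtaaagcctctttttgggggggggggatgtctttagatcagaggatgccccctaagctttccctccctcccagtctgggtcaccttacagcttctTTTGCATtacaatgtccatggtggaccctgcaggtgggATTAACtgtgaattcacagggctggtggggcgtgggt
Elf5: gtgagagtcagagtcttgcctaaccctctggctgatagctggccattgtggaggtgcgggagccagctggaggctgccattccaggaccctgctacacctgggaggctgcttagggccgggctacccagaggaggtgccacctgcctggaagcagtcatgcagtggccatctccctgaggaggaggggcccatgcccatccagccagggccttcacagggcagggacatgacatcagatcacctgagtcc
The Afp window held 1 match, GTTAAT at -105 to -100 from the start. The Hnf4a window held AGATAA at -52 to -47. The Nanog window held TTTGCAT at -75 to -69 and, on the other strand, the HNF1 letters at -37 to -32, and the Elf5 window held none of the 7. Among all 32851 promoter windows of this length, 9.99% held AGATAA, 6.43% GTTAAT, 4.12% TTTGCAT, 10.8% TTTATG, 13.7% GCCNNNGGC, 4.08% AAGGTCA and 3.17% TGTTTAC. Of the 30 windows matched to 24 of 29 visceral endoderm genes, 20% held the HNF1 motif, 16.7% that of AP-2, 10% each those of the Gata family, FOXA and CDX, and 3.33% each those of POU and ESRRB. Of the 20 windows of 17 of 21 trophoblast genes, 20% each held the CDX and AP-2 motifs, 15% that of POU, 10% that of HNF1 and 5% that of FOXA, and none held those of the Gata family or ESRRB. Over the 15058 windows of all tested genes the shares were 20.3% for AP-2, 6.06% for the Gata family, 6.01% for CDX, 4.12% for HNF1, 3.28% for POU, 2.96% for ESRRB and 2.11% for FOXA. Only 11859 of these 15532 genes have a promoter in the table, which makes a check against them void, and the shares are a description. With so few windows 1 match moves a share by 3.33 or 5 percentage points, and no difference from all promoters was tested. For the endoderm factors and the pluripotency genes the check is void, since only 11 of 18 and 12 of 18 members have a promoter in the table. A match describes letters, not a bound site.

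Lineage was associated with RNA differences across the whole transcriptome. Of 15532 genes tested with edgeR, 10048 (64.7%) were called at an adjusted p under 0.05, 5006 higher in the CDX2 cultures (32.2%) and 5042 higher in the endoderm cultures (32.5%). At a fold of at least 2, 2048 genes (13.2%) were higher in CDX2 and 2102 (13.5%) in endoderm cultures, and at a fold of at least 8 the numbers were 437 and 555. Because 64.7% of all genes pass, the counts of the gene groups below have to be read against these shares, and most weight falls on sizes. Fold changes are log2 ratios of CDX2 over endoderm cultures, so negative values mean higher in endoderm. The median over all genes was 0.01 and the median size 0.58. Both CDX2 libraries lay above both endoderm libraries in 6634 of the 15532 genes, and both endoderm libraries above both CDX2 libraries in 6485. Libraries without overlap were therefore common and say little by themselves. In the sentences below the levels of the 2 libraries of a group are joined by "and", and the CDX2 cultures come before "against", except in the paragraphs on endoderm factors and products, matrix and other cell types, retinoic acid, Hox and imprinted genes, where the endoderm cultures come first, or where a sentence says otherwise.

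**Figure D1:**
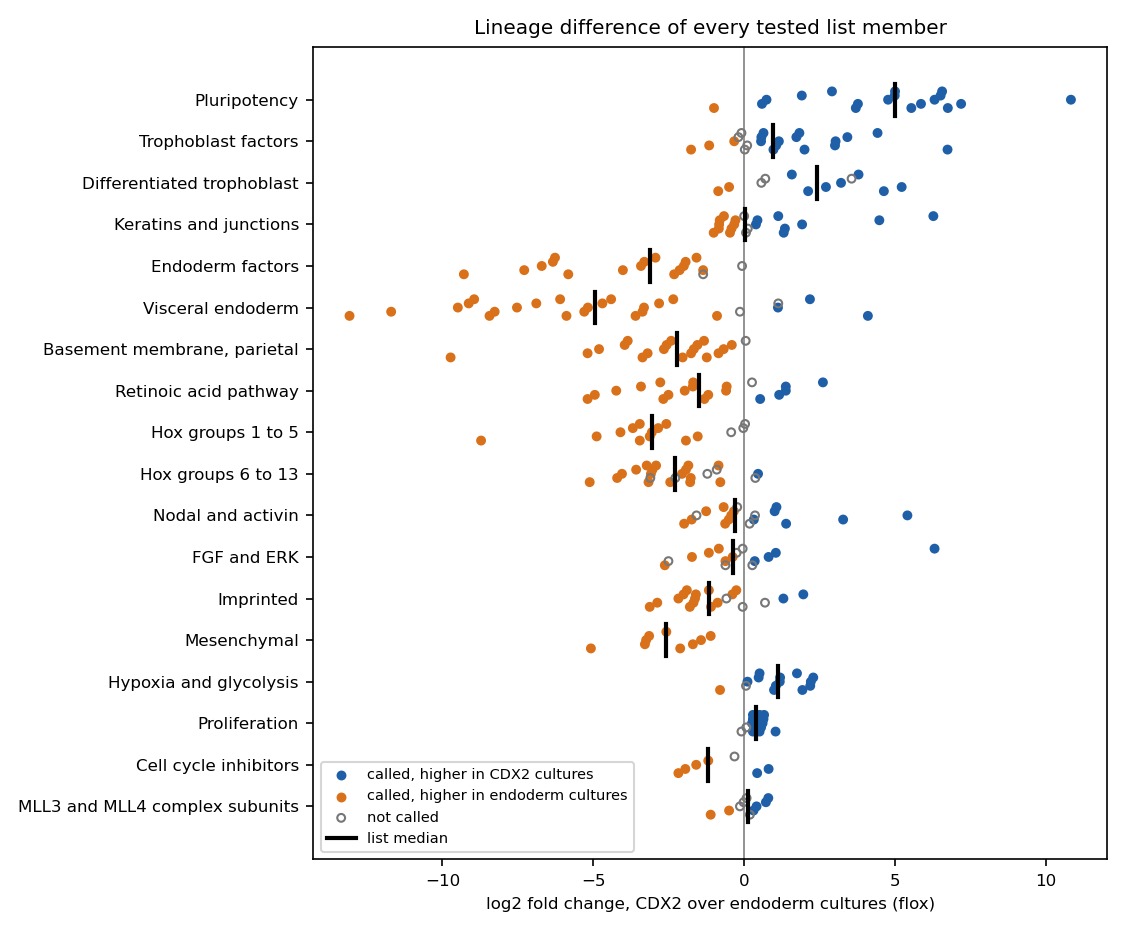
Log2 fold change (x axis, CDX2 over endoderm cultures) of each tested member of 18 gene groups (rows), filled where called and open where not, with a black bar at the group's median. Pluripotency genes lie around a median of 4.99 and visceral endoderm genes around -4.94 (genes without a read in 1 culture, such as Afp and Dppa3, are drawn at fitted values that are not measured ratios), and keratins and junction genes lie on both sides of a median of 0.03.

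Among trophoblast regulators, 14 of 21 were higher in the CDX2 cultures, 3 were higher in the endoderm cultures and 4 were not called (median 0.97). Cdx2 itself was at 29.0 and 26.2 CPM in the CDX2 cultures and at 2.75 and 4.00 CPM in the endoderm cultures, with 8.81 CPM in the stem cells (log2 fold change 3.03, SE 0.16, adjusted p = 7.36e-10). The groups did not overlap, but reads of the endogenous gene and of the transgene are not separable in these tables. Elf5, an ETS factor that marks trophoblast stem cells, was at 15.6 and 18.4 CPM against 0.100 and 0.211 CPM, and no read was found in the stem cells (6.74, SE 0.45, adjusted p = 2.15e-08). Tfap2c, an AP-2 factor of the early trophoblast, stood at 111.7 and 107.8 against 4.6 and 5.64 CPM (4.42, SE 0.41, adjusted p = 0.000586). Both CDX2 libraries thus lay far above both endoderm libraries for these 3 genes.

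Other factors followed with smaller ratios. Ascl2, needed for the spongiotrophoblast, was at 11.0 and 13.7 against 1.15 and 1.16 CPM (3.42). Esx1, a homeobox gene of the placental labyrinth, was at 58.2 and 55.5 against 6.35 and 7.75 CPM (3.01). Gata2 (50.6 and 51.6 against 13.5 and 12.0 CPM, 2.00) and Hand1, a factor of trophoblast giant cells (105.6 and 106.6 against 29.7 and 30.0 CPM, 1.83), were clearly present in the endoderm cultures as well. Hand1 was nearly undetected in the stem cells, at 0.120 CPM. Id2, Elf3, Cdcp1, Bmp4, Plet1, Sox21 and Tead4 were higher in the CDX2 cultures by 0.56 to 1.73, and Sox21 lost its call without CDX2 replicate 2 or either endoderm library (adjusted p 0.0648 to 0.11).

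Not every member of the core trophoblast set took this direction. Eomes, a T-box factor of trophoblast stem cells that also acts in primitive streak and visceral endoderm, was lower in the CDX2 cultures, at 17.1 and 18.2 against 59.2 and 60.5 CPM (-1.76, SE 0.15, adjusted p = 5.95e-07), and the stem cells held 19.2 CPM. Msx2 (24.7 and 28.6 against 57.0 and 62.2 CPM, -1.16, SE 0.09) and Gata3 (17.3 and 16.1 against 21.4 and 20.6 CPM, -0.33, SE 0.11, adjusted p = 0.0135) were also higher in the endoderm cultures. Gata3 lost its call without CDX2 replicate 2 (-0.27, adjusted p = 0.107), without endoderm replicate 1 (-0.30, adjusted p = 0.0835) and without composition scaling (-0.24, adjusted p = 0.0579). Fgfr2, the FGF4 receptor of trophoblast stem cells, was at 85.7 and 83.9 against 81.7 and 85.9 CPM (0.02, adjusted p = 0.856), and at 3.66 CPM in the stem cells. Klf5, Ets2 and Tfap2a were not called either (-0.19 to 0.10).

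**Figure D2:**
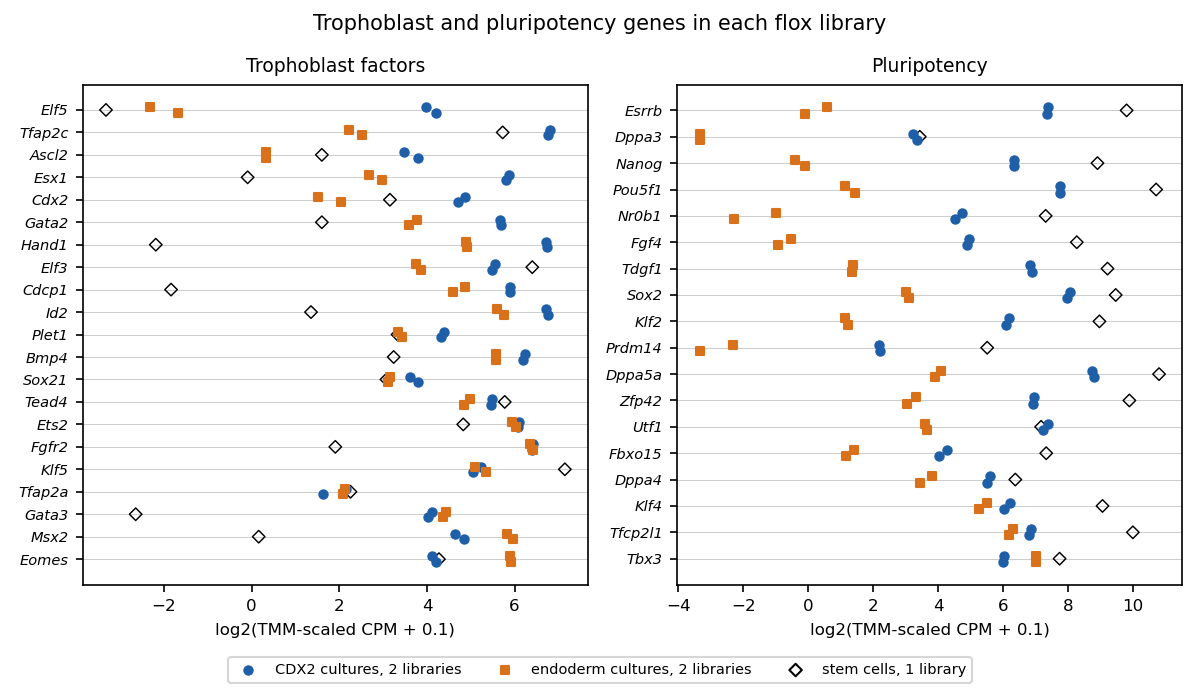
Levels of the 21 trophoblast genes (left) and 18 pluripotency genes (right) in each library, as log2 of TMM-scaled CPM plus 0.1 (x axis), for CDX2 cultures (blue circles), endoderm cultures (orange squares) and the stem cell library (open diamonds, scaled separately). Elf5 and Tfap2c separate the cultures most among trophoblast genes, while Eomes, Msx2 and Gata3 lie lower in the CDX2 cultures, and 17 of 18 pluripotency genes lie above the endoderm cultures.

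Genes of differentiated trophoblast were split between a detected and an undetected part. Of 20 members 12 had enough reads to be tested, 7 were higher in the CDX2 cultures and 2 (Mmp9 and Peg10) in the endoderm cultures. The summed level of the list went the other way, at 2177 and 2182 CPM in the CDX2 and 2614 and 2571 CPM in the endoderm cultures. Phlda2, an imprinted gene that restrains placental growth, was at 88.4 and 87.5 against 5.65 and 7.06 CPM (3.79, SE 0.16, adjusted p = 9.53e-10). Gcm1, which drives syncytiotrophoblast formation, was at 6.78 and 7.02 against 0.05 and 0.316 CPM (5.22, SE 0.74, adjusted p = 0.000134). Rhox6 (81.3 and 75.6 against 12.6 and 11.3 CPM) and Rhox9 (69.6 and 71.8 against 8.75 and 6.53 CPM) were higher as well, but they are related copies of 1 X-linked cluster that may share reads, so their values are uncertain. Tpbpa, a spongiotrophoblast marker, Prl3d1 of giant cells, Ctsq and Cts7 had no read in any of the 4 libraries, and Prl3b1, Prl2c2, Cts8 and Hsd3b6 had at most 6 reads over a group.

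Keratins and junction proteins, the epithelial part of the trophectoderm program, differed in both directions, with similar sums in both cultures. In this group 8 of 20 were higher in the CDX2 cultures and 9 in the endoderm cultures, and the summed levels were 7173 and 7003 against 7073 and 7051 CPM, compared with 1472 CPM in the stem cells. Krt8 was at 1575 and 1544 against 1905 and 1919 CPM (-0.29, SE 0.05) and Krt18 at 1254 and 1211 against 1185 and 1175 CPM (0.06, adjusted p = 0.485, and 0.0311 in a fit of only the 4 flox libraries). Both were at 32.6 and 4.14 CPM in the stem cells. Claudin 3 (Cldn3) was the tight-junction gene with the widest difference, at 179.0 and 167.7 against 7.70 and 7.85 CPM (4.48, SE 0.33, adjusted p = 0.00016). The water channel Aqp3 was at 11.6 and 13.0 against 0.200 and 0.105 CPM (adjusted p = 4.3e-09) and the adhesion protein Epcam at 331.9 and 332.6 against 82.5 and 92.9 CPM (1.92). Desmoplakin (Dsp), at 330.4 and 335.7 against 672.7 and 669.9 CPM (-1.01), went the other way.

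The pluripotency genes were almost all higher in the CDX2 cultures. In this list 17 of 18 were higher in the CDX2 cultures, with a median of 4.99, and the exception was Tbx3 (64.5 and 63.6 against 128.7 and 127.9 CPM, -1.0). Pou5f1, which encodes OCT4, was at 215.7 and 215.4 CPM in the CDX2 cultures and at 2.10 and 2.63 CPM in the endoderm cultures (6.51, SE 0.43, adjusted p = 0.000113). Nanog was at 80.2 and 80.6 against 0.650 and 0.843 CPM (6.75, SE 0.46, adjusted p = 1.85e-05), and Sox2 at 268.0 and 252.8 against 7.90 and 8.43 CPM (5.00, SE 0.16, adjusted p = 2.58e-09). Esrrb, a nuclear receptor of naive stem cells that is also expressed in trophoblast stem cells, was at 165.9 and 164.5 against 1.40 and 0.843 CPM (7.19, SE 0.14, adjusted p = 5.79e-14). For these 4 genes every endoderm library lay far below both CDX2 libraries.

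Against the single stem cell library these levels were intermediate. Pou5f1 in the CDX2 cultures was at 12.5% of the stem cell level, Nanog at 16.3%, Sox2 at 35.7% and Esrrb at 18%. In the endoderm cultures the same 4 genes were at 0.137%, 0.151%, 1.12% and 0.122%. Over the 18 members the CDX2 cultures ranged from 9.45% to 107.6% with a median of 15.7%, and the endoderm cultures from 0 to 58.3% with a median of 0.647%. The 2 members near or above the stem cell level in the CDX2 cultures were Utf1 (107.6%), an epiblast and stem cell chromatin factor, and Dppa3 (87.8%), a maternal and germline factor. Dppa3 had no read in either endoderm library, which makes it at least 63.1-fold higher in the CDX2 cultures (9.22 and 10.2 CPM), taking 3 reads per library as the floor. The stem cell library is labelled poly(A) RNA and the lineage libraries total RNA, although the labels give the same poly(A) selection and library kit for all, and it has no replicate. In bulk cultures a smaller number of cells with a transcript and less of it per cell cannot be told apart.

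Markers of the epiblast stages that follow naive pluripotency were mixed, with 5 of 9 higher in the CDX2 cultures and 2 in the endoderm cultures. Pou3f1 (94.8 and 86.1 against 2.70 and 2.42 CPM, 5.14) was far above its stem cell level of 3.90 CPM in the CDX2 cultures, and Foxd3 was at 10.9 and 11.0 against 0.300 and 0.632 CPM (4.55). Fgf5, an epiblast ligand, was higher in the endoderm cultures (4.99 and 5.01 against 29.7 and 29.2 CPM, -2.56), as was Sox3 (-1.39). Lin28b, called at 0.50 (adjusted p = 0.0384), lost its call when any 1 of the 4 flox libraries (adjusted p 0.0857 to 0.141), either KI endoderm library or the filter on low counts was left out (0.0634 to 0.0841).

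Transcription factors of the endoderm lineage were higher in the endoderm cultures in 16 of 18 cases, and none was higher in the CDX2 cultures (median -3.13). Gata6, which specifies primitive endoderm, was at 113.9 and 113.1 CPM against 7.26 and 6.76 CPM in the CDX2 cultures (-4.02, SE 0.11, adjusted p = 1.23e-12). Gata4 was at 174.9 and 189.0 against 2.79 and 1.71 CPM (-6.34, SE 0.18, adjusted p = 1.33e-10). Sox17 was at 72.9 and 85.0 against 8.30 and 6.43 CPM (-3.42, SE 0.17) and its relative Sox7 at 32.9 and 33.4 against 0.638 and 0.223 CPM (SE 0.29). In the stem cells Gata6 was at 0.240 CPM and Sox17 at 0.420 CPM, below the CDX2 cultures. Sox7 (2.10 CPM) was above them, and Gata4 (3.36 CPM) was too close to rank on the separate scaling.

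Among factors that act later in the visceral endoderm, Hnf4a and Lhx1 were close to undetected in the CDX2 cultures, while Foxa2 and Cited1 were present. Hnf4a, a nuclear receptor that controls apolipoprotein genes, was at 28.0 and 26.7 CPM in the endoderm cultures against 2 reads in 1 CDX2 library, a ratio of 711 with a counting interval of 196.8 to 5871. Foxa1 was at 50.2 and 47.2 against 1.12 and 0.594 CPM (-5.83) and Foxa2 at 65.0 and 72.3 against 7.82 and 6.02 CPM (-3.31). Lhx1, of the anterior visceral endoderm, was at 16.5 and 15.3 against 0.0798 and 0.111 CPM (-7.29). Cited1 (35.8 and 31.8 against 32.1 and 32.2 CPM) and Gsc (-1.36, adjusted p = 0.072, and 0.013 to 0.0493 with only the flox libraries or without either KI CDX2 library) were not called.

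The secreted and absorptive products of visceral endoderm included some of the widest ratios of the comparison. In this list 21 of 26 tested members were higher in the endoderm cultures and 3 in the CDX2 cultures, with a median of -4.94 (-4.21 when genes without any read in 1 culture are set to their bound). Afp, alpha-fetoprotein, had no read in the CDX2 cultures and 48.5 and 43.8 CPM in the endoderm cultures, at least 399-fold higher. Apob, the structural protein of lipoproteins, was at 542.3 and 519.7 against 0.160 and 0.149 CPM (-11.70, SE 0.15, adjusted p = 6.29e-16). Its assembly factor Mttp was at 50.8 and 55.7 against 9.30 and 11.6 CPM (-2.35).

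Transthyretin (Ttr), which carries thyroid hormone and retinol-binding protein, was at 22.8 and 20.6 CPM against 2 reads, a ratio of 564 with a counting interval of 156 to 4657. Cubilin (Cubn), the endocytic receptor of the yolk sac epithelium, was at 464.9 and 466.8 against 0.798 and 0.854 CPM (-9.13, SE 0.12, adjusted p = 6.29e-16), and its partner Amn at 24.5 and 27.4 against 0.718 and 0.594 CPM (-5.30). Dab2, the endocytic adaptor, was at 400.0 and 397.4 against 52.3 and 60.9 CPM (-2.82), and Lrp2, the other large receptor of this epithelium, was not called (779.4 and 781.0 against 714.4 and 705.9 CPM, -0.14, adjusted p = 0.277, and 4.9e-05 with only the flox libraries or 0.0347 with a replicate block). Spink1, a secreted protease inhibitor, was at 110.7 and 119.0 against 0.0798 and 0.223 CPM (-9.49). Every endoderm library exceeded every CDX2 library for these genes, as it did for 6485 of all 15532 tested genes.

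The list was not uniform, as the following genes show (CDX2 cultures first). Apoe was higher in the CDX2 cultures (1179 and 1139 against 529.1 and 534.8 CPM, 1.12, adjusted p = 0.0157), near the 1274 CPM of the stem cells, but without CDX2 replicate 1, endoderm replicate 1 or endoderm replicate 2 its adjusted p was 0.0556, 0.0716 and 0.0693. Lefty1, a Nodal inhibitor of the anterior visceral endoderm that stem cells also make (235.4 CPM), was at 36.8 and 33.8 against 7.55 and 8.06 CPM (2.18). Fgg, a fibrinogen chain, stood at 1.16 and 0.780 CPM against 2 reads, and its adjusted p of 0.00527 became 0.0665 without endoderm replicate 1. Cer1, another anterior marker, reached at most 0.450 CPM, and the apolipoprotein genes Apoa1, Apoa4 and Apom reached at most 8.85, 1.90 and 8.00 CPM in the endoderm cultures. Per transcript length (mean RPKM in the endoderm cultures) Apoe (326.8) and Spink1 (209.2) were the most abundant members, above Dab2 (67.9), Lrp2 (38.8), Cubn (31.6) and Apob (29.3).

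**Figure D3:**
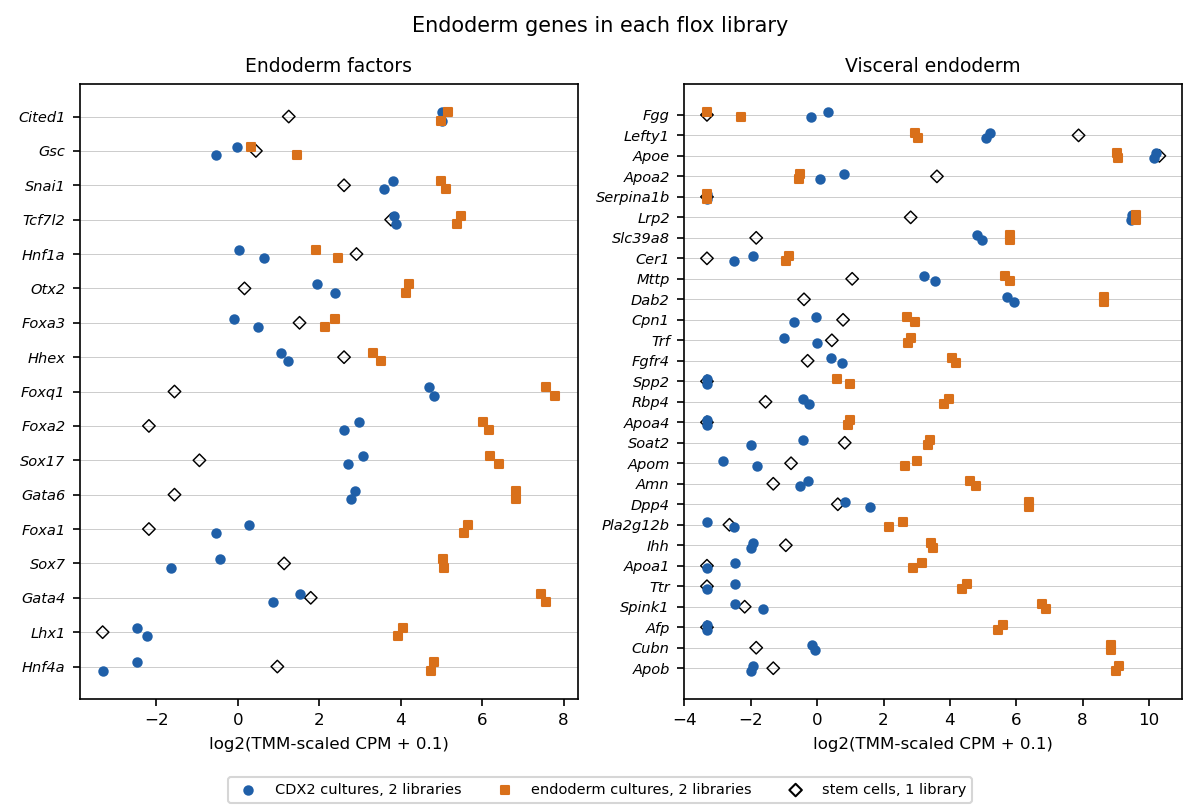
Levels of 17 of 18 endoderm transcription factors (left) and 28 visceral endoderm genes (right) in each library, as log2 of TMM-scaled CPM plus 0.1 (x axis), with the symbols of the trophoblast plot (genes without any read sit at the left edge). Apob, Cubn, Afp and Spink1 show the widest gaps, and Lefty1, Apoe and Fgg lie higher in the CDX2 cultures.

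Basement membrane and parietal endoderm genes were higher in the endoderm cultures in 19 of 20 cases (median -2.23), and the summed level was 18961 and 18515 CPM against 7065 and 6770 CPM. Col4a1, which encodes the collagen of basement membranes, was at 3049 and 2955 against 331.9 and 319.7 CPM (-3.20, SE 0.05, adjusted p = 5.79e-14), and Col4a2 at 1925 and 1883 against 366.6 and 347.1 CPM (-2.42). Of the subunits of laminin-111, Lama1 was at 1062 and 1035 against 41.1 and 33.8 CPM (-4.81), Lamc1 at 1706 and 1667 against 505.7 and 489.2 CPM (-1.76) and Lamb1 at 1291 and 1278 against 439.6 and 436.5 CPM (-1.55). Lama5, the alpha chain of another laminin, was not called (1152 and 1095 CPM in CDX2 against 1093 and 1071 CPM in endoderm cultures, and adjusted p = 0.00349 without composition scaling). Srgn, the proteoglycan serglycin, was at 36.6 and 37.7 CPM against 2 reads (ratio 966, counting interval 267 to 7976). Pdgfra, the receptor that marks primitive endoderm, was at 55.3 and 54.3 against 3.71 and 3.83 CPM (-3.86), and Pth1r of parietal endoderm at 68.4 and 68.6 against 11.0 and 10.7 CPM (-2.66).

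Genes of mesenchymal cells moved the same way, 9 of 9 higher in the endoderm cultures (median -2.58). N-cadherin (Cdh2) was at 355.5 and 360.4 against 8.62 and 12.4 CPM (-5.08, SE 0.30, adjusted p = 7.06e-05) and vimentin (Vim) at 1644 and 1686 against 180.1 and 196.2 CPM (-3.15). E-cadherin (Cdh1) was less different, at 714.9 and 701.7 against 940.6 and 912.7 CPM (0.39, adjusted p = 0.0188, and 0.0559 to 0.0766 without CDX2 replicate 1, endoderm replicate 2, either KI CDX2 library or the filter on low counts).

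Markers of other cell types differed in both directions. Of 10 fibroblast markers 8 were tested, of which 4 were higher in the endoderm cultures, 1 was higher in the CDX2 cultures and 3 were not called, and the list summed to 2114 and 2025 CPM in the endoderm cultures and 337.7 and 332.4 CPM in the CDX2 cultures. Col1a1 (1491 and 1397 against 53.5 and 48.4 CPM, -4.83) and Col3a1 (532.0 and 532.5 against 6.46 and 8.39 CPM, -6.16) held most of its reads, Dpt had no read and Lum had 2 reads over each group. Col1a2, whose product pairs with that of Col1a1 in type I collagen, went the other way (15.4 and 16.1 against 226.9 and 226.1 CPM, 3.85, SE 0.35, adjusted p = 0.000518). Of 12 neural markers 10 were tested, of which 5 were higher in the endoderm cultures and 4 in the CDX2 cultures. Nes (378.1 and 391.3 against 53.2 and 52.0 CPM) and Tubb3 (126.2 and 125.8 against 8.5 and 8.54 CPM) were among those higher in the endoderm cultures. Sox1 (0.300 and 0.527 CPM), Neurog2 and Hes5 were near or at 0 in the endoderm cultures. Of 14 streak and mesoderm markers 11 were tested, of which 5 were higher in the endoderm cultures, led by Hand2 (26.6 and 20.7 against 0.160 and 0.0743 CPM). Another 3 were higher in the CDX2 cultures, among them T (brachyury), with 3 reads over both endoderm libraries against 4.55 and 8.02 CPM in the CDX2 cultures. The part of such cells in the results was not tested.

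Retinoic acid was added to the endoderm cultures alone, and its pathway differed in 19 of 20 tested genes, 14 higher in the endoderm cultures and 5 in the CDX2 cultures (median -1.51). The enzymes that degrade retinoic acid, which the ligand itself is known to induce, were all higher: Cyp26a1 at 284.7 and 268.4 against 10.2 and 7.80 CPM (-4.95, SE 0.48, adjusted p = 0.000924), Cyp26b1 at 42.2 and 39.5 against 0.998 and 1.23 CPM (-5.19) and Cyp26c1 at 4.95 and 4.00 against 0.279 and 0.186 CPM (-4.24). The receptor gene Rarb was at 36.1 and 40.7 against 6.03 and 5.98 CPM (-2.68, SE 0.19), and Rara at 61.9 and 59.6 against 41.3 and 39.9 CPM (-0.58). Rarg, at 44.8 and 42.9 against 116.5 and 111.4 CPM (1.38, SE 0.07), went the other way, as did Rxra (0.53). The receptors thus differed in opposite directions. Of the synthesis enzymes, Aldh1a1 was higher in the endoderm cultures (6.80 and 7.22 against 0.958 and 1.49 CPM, -2.51, SE 0.40), and so was Aldh1a3 (-1.32, adjusted p = 0.0476), whose call was lost in 9 alternatives (adjusted p 0.0507 to 0.37). Aldh1a2 (1.55 and 2.11 against 10.7 and 11.6 CPM, 2.61) and the binding protein Crabp2 (1.38) were higher in the CDX2 cultures, while Rdh10, Dhrs3 and Crabp1 were higher in the endoderm cultures (-1.70, -0.60 and -3.42). The homeobox genes Meis1 (114.4 and 127.2 against 17.6 and 17.7 CPM) and Meis2 (112.5 and 114.2 against 27.9 and 29.9 CPM) were higher in the endoderm cultures too.

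The Hox genes, which pattern the body axis and include known retinoic acid targets, were higher in the endoderm cultures in 29 of 38 tested cases, with 1 higher in the CDX2 cultures and 8 not called (median -2.71). They were 12 of 15 members in paralog groups 1 to 5 and 17 of 23 in groups 6 to 13, a difference that was not tested. Without CDX2 replicate 1 the called members of groups 6 to 13, in either direction, numbered 13 instead of 18, and those of groups 1 to 5 still 12. By cluster, 9 of 11 Hoxa, 9 of 10 Hoxb, 8 of 9 Hoxc and 3 of 8 Hoxd genes were higher in the endoderm cultures. Per transcript length Hoxb9 (12.1), Hoxa5 (11.7) and Hoxb2 (11.2) had the highest mean RPKM in the endoderm cultures. Hoxb9 was at 43.8 and 41.0 against 1.20 and 1.23 CPM (-5.12, SE 0.15, adjusted p = 2.77e-12) and Hoxa5 at 26.9 and 30.4 against 0.958 and 0.966 CPM (-4.89). Hoxd1 had no read in the CDX2 cultures and 1.65 and 2.85 CPM in the endoderm cultures, at least 19.5-fold higher. Hoxd9 was the member higher in the CDX2 cultures (5.70 and 6.01 against 8.26 and 7.80 CPM, 0.46, adjusted p = 0.0236), a call that was lost without CDX2 replicate 1 (adjusted p = 0.0873), endoderm replicate 1 (0.105) or endoderm replicate 2 (0.0611) and with DESeq2 (0.0741).

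**Figure D4:**
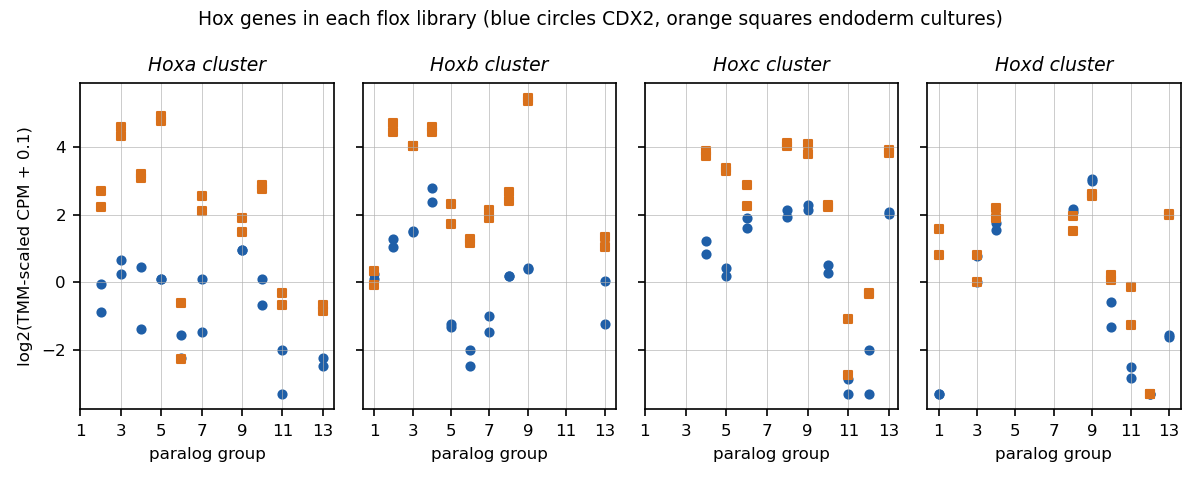
Levels of 38 of 39 Hox genes in each library, as log2 of TMM-scaled CPM plus 0.1 (y axis) by paralog group (x axis) in the 4 clusters, with CDX2 cultures as blue circles and endoderm cultures as orange squares. The endoderm libraries lie above the CDX2 libraries along the Hoxa, Hoxb and Hoxc clusters, while Hoxd8 and Hoxd9 lie higher in the CDX2 libraries (log2 fold changes 0.37, not called, and 0.46).

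Activin A signals through the Nodal pathway, and its 18 genes differed in both directions (6 higher in the CDX2 and 8 in the endoderm cultures). Their median of -0.29 was -0.10 and -0.13 without CDX2 replicate 1 or endoderm replicate 2, and -0.41 without either of the other flox libraries. The ligand gene Nodal was at 56.4 and 55.7 against 24.6 and 28.7 CPM (1.07) and Gdf3 at 10.9 and 11.4 against 0.100 and 0.422 CPM (5.41). The inhibitor Lefty2 was at 25.9 and 22.5 against 2.15 and 2.85 CPM (3.28). Pmepa1 and Skil, feedback inhibitors of SMAD signalling, were higher in the endoderm cultures (21.9 and 26.9 against 79.1 and 84.0 CPM, and 83.3 and 91.9 against 216.8 and 204.0 CPM). Smad2, Smad3 and Smad4 were also higher there, by 0.34 to 0.68 in size.

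FGF4 was added to the CDX2 cultures alone, and the FGF and ERK list split 4 to 6 with 5 genes not called (median -0.38). Without any 1 of the 4 flox libraries 7 genes were called instead of 10, and the median was -0.19 without CDX2 replicate 1, -0.24 without endoderm replicate 2, -0.42 without CDX2 replicate 2 and -0.48 without endoderm replicate 1. Fgfr1 was higher in the CDX2 cultures (310.9 and 300.4 against 143.4 and 151.6 CPM, 1.05, SE 0.05) and Fgfr3 in the endoderm cultures (9.5 and 8.77 against 20.6 and 20.5 CPM, -1.17). The immediate response genes Egr1 (7.86 and 5.98 against 43.2 and 42.0 CPM, -2.63, SE 0.12) and Dusp4 (42.2 and 43.4 against 143.2 and 140.8 CPM, -1.73), both known ERK targets, were higher in the endoderm cultures. Spry2, a feedback inhibitor, was higher in the CDX2 cultures (0.81), and Etv4 and Etv5 were not called (-0.05 and 0.27, the latter with adjusted p = 0.000751 to 0.0146 in only the flox libraries or without either KI CDX2 library). Fgf17 was the ligand with the widest difference, at 17.8 and 15.6 CPM against 0.400 and 0 CPM (6.31, SE 0.90, adjusted p = 0.000819).

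Imprinted genes were mostly higher in the endoderm cultures, 14 of 19 against 2 (median -1.17). Dlk1, a NOTCH-related membrane protein, was at 672.2 and 708.0 against 76.2 and 81.5 CPM (-3.13, SE 0.33, adjusted p = 0.00116) and Plagl1, a zinc finger factor, at 379.6 and 358.4 against 51.5 and 48.7 CPM (-2.88). Igf2r, which clears IGF2, was at 1001 in both libraries against 294.5 and 279.8 CPM (-1.80), whereas Igf2 itself differed less (2564 and 2510 against 1946 and 1924 CPM, -0.39). Meg3 was at 250.4 and 234.4 against 165.3 and 156.6 CPM without overlap and was not called (-0.59, SE 2.24, adjusted p = 0.84). In the fit of the 4 flox libraries alone, without the spread between the KI clones, its adjusted p was 2.77e-16, and with a replicate block, which pairs each KI clone across the lineages, it was 5.02e-08.

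Genes of replication and of glycolysis were mostly higher in the CDX2 cultures, and several cell cycle inhibitors were higher in the endoderm cultures. Of 16 replication and mitosis genes 14 were higher in the CDX2 cultures and none in the endoderm cultures, but by little (median 0.38), with Mki67 at 437.3 and 446.5 against 356.8 and 347.1 CPM. The inhibitors Cdkn1a (162.4 and 164.4 against 491.3 and 490.4 CPM, -1.59), Cdkn2a (55.9 and 56.5 against 217.2 and 218.3 CPM, -1.95) and Cdkn2b (28.3 and 30.5 against 129.8 and 137.1 CPM, -2.18) were higher in the endoderm cultures, and Cdkn1b in the CDX2 cultures (0.81). Over the 7 cell cycle inhibitors listed, 4 were higher in the endoderm cultures, 2 were higher in the CDX2 cultures and 1 was not called. Of 14 hypoxia and glycolysis genes 12 were higher in the CDX2 cultures and only Hk2 in the endoderm cultures (median 1.12). The glucose transporters Slc2a3 (4128 and 4091 against 1983 and 1976 CPM, 1.05) and Slc2a1 (2308 and 2251 against 591.4 and 607.1 CPM, 1.93) were among them, and Pdk1, a brake on mitochondrial pyruvate use, was at 89.8 and 92.7 against 21.0 and 18.4 CPM (2.21).

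The genes with the widest ratios in each direction were largely members of these groups. Beside Esrrb, Nanog, Elf5, Nr0b1, Pou5f1, Fgf17 and Aqp3, those higher in the CDX2 cultures included Nos2, the inducible nitric oxide synthase (13.1 and 16.3 against 0.200 and 0 CPM, 7.10). Those higher in the endoderm cultures (endoderm levels first), beside Afp, Apob, Srgn, Spink1, Hnf4a and Cubn, were Col14a1 (21.6 and 23.2 CPM against no read, at least 194-fold), Tfec, a MiT family factor (17.2 and 17.2 CPM against no read, at least 149-fold), Hkdc1, a hexokinase (88.0 and 88.0 against 0.0798 and 0.149 CPM, -9.51), and Klb, the coreceptor of endocrine FGFs (26.2 and 25.9 CPM against 2 reads, ratio 677 with a counting interval of 187.5 to 5593). By difference of CPM, which favours abundant genes, the largest differences toward the endoderm cultures included Col4a1, Peg3, Flna, Actg1, Actb, Ahnak, Fn1, Acta2 and Tagln. Their ratios varied, with log2 fold changes of -0.80 for Actg1, -1.20 for Actb, -1.21 for Ahnak and -4.20 for Acta2. The CDX2 cultures were led by the translation factors Eef1a1 (11630 and 11856 against 7879 and 7816 CPM) and Eef2, by Slc2a3 and Slc2a1, and by Hsp90ab1, Igfbp2, Hspa8, Rps2 and Rpl3. Igfbp2 (1.40, adjusted p = 0.0208) lost its call when any 1 of the 4 flox libraries was left out (adjusted p 0.0685 to 0.104).

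Kmt2d and Kmt2c RNA was compared as well, since all cells carry altered alleles. Kmt2d was at 144.6 and 146.8 CPM in the CDX2 and 323.3 and 306.9 CPM in the endoderm cultures (-1.11, SE 0.06, adjusted p = 8e-10), and Kmt2c, labelled null, at 35.8 and 32.3 against 34.3 and 30.0 CPM (0.08, adjusted p = 0.629). A transcript level does not test a label that concerns an exon or a residue. Of 10 genes for subunits of the MLL3 and MLL4 complexes, these 2 included, 4 were higher in the CDX2 cultures and 2, Kmt2d and Ncoa6, in the endoderm cultures.

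The lineage difference of flox cells was set against that of KI cells under the same protocols, by testing the difference between both. It was called in 5486 of 15532 genes (35.3%). Among endoderm factors 15 of 18 differed, all with a lower log2 ratio in flox (median -3.13 in flox and -1.10 in KI). In KI cells 11 endoderm factors were called higher in the endoderm cultures and 2 in the CDX2 cultures. Among visceral endoderm genes 18 of 26 differed, 17 with a lower and 1 with a higher ratio in flox. No KI median is given for the visceral endoderm genes, since 5 of them had fewer than 10 reads over the 4 KI libraries. Gata4 had a log2 fold change of -1.86 in KI (3.82 and 5.37 CPM in CDX2 cultures, 15.6 and 18 CPM in endoderm cultures), a difference of -4.48 (SE 0.27, adjusted p = 3.28e-07). Gata6 was close in both (-4.02 and -3.37, difference -0.65, adjusted p = 0.00345). Apob reached at most 0.213 CPM in a KI library, and Spink1 and Ttr had no read in the 4 KI libraries, where no KI ratio can be formed.

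For the pluripotency list 10 of 18 differed (median 4.99 in flox and 3.11 in KI), with Esrrb at 4.6 in KI against 7.19 in flox (difference 2.59, SE 0.22, adjusted p = 7.83e-07). Trophoblast factors differed in 13 of 21, in both directions. Cdx2 had a wider gap in KI (5.28, difference -2.24, SE 0.25, adjusted p = 8.52e-06), and Eomes changed direction (1.61 in KI, 22.1 and 32.7 against 8.30 and 9.64 CPM). The Hox genes differed in 7 of 15 anterior and 4 of 23 posterior members, and the mesenchymal genes in 2 of 9.

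**Figure D5:**
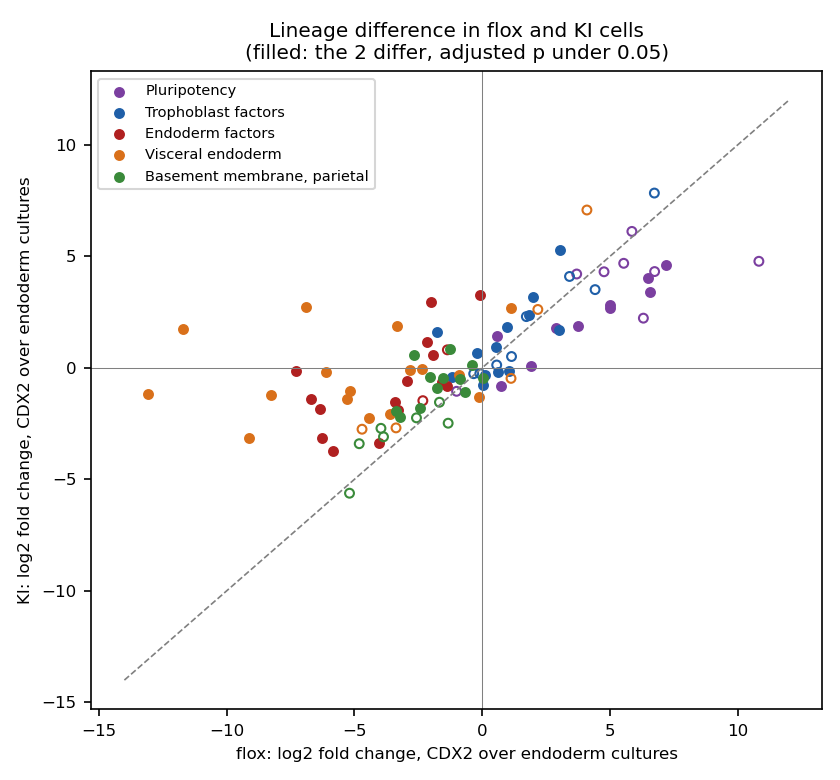
Log2 fold change of CDX2 over endoderm cultures in flox (x axis) and KI cells (y axis) for members of 5 gene groups, filled where the difference between both was called, with a dashed line of equal values (7 genes with fewer than 10 reads over the KI libraries are left out). Endoderm factors have a median of -3.13 in flox and -1.10 in KI while trophoblast genes have medians of 0.97 and 0.94.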

How the data were processed

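RNA of 4 flox libraries (2 trophectoderm, 2 extraembryonic endoderm), 4 KI libraries and 1 stem cell library was analysed. The deposited tables give whole read counts and RPKM per RefSeq transcript, per the file headers. Per the labels' protocols the libraries were poly(A)-selected and made with the NEBNext Ultra II RNA kit, and whether counting used strand is not given. The submitters' processing notes name bcl2fastq, Bowtie2, STAR, SICER 1.1 and mm9 without roles, and the counter and annotation version are not given in the sources used here. RPKM values, made by the authors, served as a check of the counts and to compare levels between genes. Per gene the transcript with the most reads over 37 libraries was used (23109 entries), and 646 accessions without a symbol stayed in the tests unnamed. The 8 lineage libraries entered 1 edgeR 4.0.16 quasi-likelihood fit (R 4.3.3, filterByExpr, TMM scaling, robust, 1 coefficient per group), with Benjamini-Hochberg adjustment over all 15532 genes. Simulated data were run through the same fit. They held few changed genes and independent counts, unlike the data here, so they do not test its error control here. Each SE was taken from the fold change and its F statistic (absolute log2 value over root F). KI clones thus share in the estimate of the spread. Reads summed over genes came to 18.91 to 27.56 M per library. In the lineage libraries low counts were mostly even: genes with 2 reads numbered 659 to 768 and genes with 1 read 279 to 363, whereas the stem cell library had 558 and 1091. Reads were therefore not counted independently, and floors (3 reads per library) and counting intervals (95%, exact Poisson), which assume that they were and cover counting error only, are too narrow. The counts of flox replicate pairs gave a chi-square per degree of freedom of 2.76 and 3.99, but its reference also assumes independent reads, so sampling noise was not separated from other spread.

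Named genes were those called, with both libraries of 1 lineage above both of the other and at least 10 CPM in the higher: the 10 with the widest ratio and the 10 with the largest CPM difference in each direction (2 accessions without a symbol among them are not named, and some genes are not reported here), the 5 with the largest difference from KI in each direction, and members of the gene lists. Members, lists and motifs were chosen with earlier results of these data known. Scaling, filter, tool, transcript choice, libraries and block were varied (closing section).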

Additional observations from a re-analysis of the deposited data

Results flagged for a closer look

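The lineage difference was tested for a difference between flox and KI cells (edgeR, n = 2 libraries in each of 4 groups). That difference was called in 5486 genes, 2647 with a higher and 2839 with a lower log2 ratio of CDX2 over endoderm cultures in flox.

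Of genes with at least 10 CPM in a group, those with the largest positive difference (flox minus KI, log2) included Ppbp (6.03), a platelet chemokine gene that was not called between the flox cultures (-0.45) and stood at 23.1 and 16.4 CPM in KI endoderm cultures, Stmn4 (5.05), Gpa33 (4.64) and Mal (4.31). Those with the largest fitted negative difference were Apob (-13.47), Afp (-11.90), Pga5 (-8.85), Hkdc1 (-7.85) and Lhx1 (-7.17), each of which was above 15 CPM in the flox endoderm cultures and below 1 CPM in both KI endoderm libraries. The value of Afp is a fitted one over a flox group without any read, and those of the other 4 rest on few reads in some groups, so neither sizes nor order are firm.

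Members of the gene lists that were called in both genotypes in opposite directions are given by their difference. Toward endoderm in flox were Pla2g12b (-9.63), Mixl1 (-6.99), Cpn1 (-5.22), Otx2 (-4.97), Eomes (-3.37), Pth1r (-3.25), Sox3 (-2.13), Hk2 (-2.08), P4ha2 (-2.07), Igf2r (-1.95) and Mmp9 (-1.51). Toward CDX2 cultures in flox were Lin28b (2.02), Crabp2 (1.96), Rarg (1.58), Klf4 (1.55), Spry2 (1.30) and Spry1 (0.90). The flox call of Spry1 was lost without endoderm replicate 1 (0.26, adjusted p = 0.103), and that of Lin28b without any 1 of the flox libraries.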

How the results depend on the processing

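With a minimum fold of 2 the calls numbered 4150 for the lineage difference (2048 higher in CDX2, 2102 in endoderm cultures) and 2047 for the difference from KI. Under the other alternatives the number of called genes stayed between 9368 (DESeq2) and 10911 (only the 4 flox libraries). Leaving out 1 library in turn gave 8508 to 10382 genes, 4159 to 5226 higher in CDX2 and 4345 to 5224 higher in endoderm cultures, 3808 to 4267 at a fold of at least 2, and 4094 to 5534 for the difference from KI. A replicate block, over numbers that flox libraries of the 2 lineages only share (correlation of their deviations 0.000824) and that name the same KI clone in both lineages (0.183), called 10226 genes, 4110 at 2-fold and 5951 for the difference from KI. Without composition scaling 55.6% of called genes were higher in CDX2 cultures instead of 49.8%. Of the genes in the lists or named by rule, 50 of 459 genes gained or lost a call in at least 1 alternative. Of 5 X inactivation and Y-linked genes 0 were called, against 4 with only the flox libraries and 3 with a replicate block. They summed to 161.6 and 207.4 CPM in the CDX2 and endoderm libraries of KI clone 27, and to 42.23 and 38.16 CPM in those of clone 48. The median of the streak and mesoderm list changed sign: 0.66 with DESeq2 and without a filter, against -1.24, and -0.62 to 1.25 when single libraries were left out. That of the neural list was 1.41 with DESeq2, 1.87 without a filter and 0.86 with only the flox libraries, against -0.97. These fits also differed in the genes they tested, 19544 with DESeq2 and without a filter instead of 15532. With only the flox libraries 9 neural markers were tested instead of 10. How far this moved the medians was not tested. Depth limits genes with few reads, for which only bounds or wide intervals are given.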

Other observations

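The ribosomal group here and the contractile group of the next paragraph were both chosen after their values were seen, so their counts support nothing further. All 77 cytosolic ribosomal protein genes were higher in the CDX2 cultures (median log2 fold change 0.89), and they took 77605 and 77293 CPM there against 41943 and 42405 CPM in the endoderm cultures and 112227 CPM in the stem cells. Rpl3, of the large subunit, was at 1985 and 2057 against 1005 and 1040 CPM (0.98, SE 0.04). These genes have many near-identical pseudogenes, so single values are uncertain. In KI cells the median was 0.49, and the difference between flox and KI was called in 76 of the 77.

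Genes of smooth muscle and the contractile apparatus were higher in the endoderm cultures in 12 of 15 cases (median -1.48), and their levels are given with the endoderm cultures first. Acta2, smooth muscle actin, was at 2062 and 2076 against 113.8 and 111.5 CPM (-4.20, SE 0.12) and 1.86 CPM in the stem cells. Actg2, another smooth muscle actin, was at 40.4 and 37.7 against 0.239 and 0.297 CPM (-7.15), and the calponin gene Cnn1 at 107.5 and 115.3 against 4.79 and 5.50 CPM (-4.43). Mylk, Synpo2 and Des, the last encoding desmin, were not called (-0.51, -0.17 and -0.19).

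Low counts were unevenly spread over even and odd numbers. Among genes with 1 to 6 reads, 66.8% to 69.9% had an even number in the 4 flox lineage libraries and 67.8% to 70.6% in the KI libraries, but 37.8% in the stem cell library.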
